A study of Homo sapiens with 2 samples.

Results

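The human mitochondrial genome carries 37 genes, of which 13 encode proteins, 2 encode rRNAs and 22 encode tRNAs. They were taken as every row placed on chromosome MT among the 60612 genes listed for L3.6 cells, an established human pancreatic cancer line, and were sorted by gene name into these classes and by the listed strand. The tested cells, shESE1, carried a lentiviral shRNA against ESE1, an epithelial ETS transcription factor encoded by *ELF3*, and the shCtrl cells carried a non-targeting shRNA. Both were pools of antibiotic-resistant clones, and the labels describe the control as untreated, for which the description in the study's methods was used. RNA was selected on its poly(A) tail and sequenced as strand-specific, paired-end reads, with 1 library in each group, so that no value below has a replicate check and no test of the condition could be made.

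The human mitochondrial genome is a small circle that is transcribed on both strands into long precursors by the polymerase POLRMT with TFAM and TFB2M. Most genes are read from the plus strand as listed here, whereas *MT-ND6* and 8 tRNA genes are read from the minus strand. tRNA genes sit between most of the rRNA and protein genes, and the precursors are released into single RNAs by cutting at both ends of each tRNA. Most mRNAs and the rRNAs are then given short poly(A) tails, tRNAs receive a CCA end instead, and the RNA helicase and exonuclease pair SUPV3L1 and PNPT1 removes unwanted antisense RNA. The proteins are subunits of respiratory complexes I, III and IV and of ATP synthase, which is complex V.

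The levels and changes of the tRNA genes differed by position and strand. Sequences of neighbouring genes are therefore given from the GENCODE release 29 transcripts on GRCh38. They are the 4 tRNA genes with the highest levels and 3 adjoining ones among those with the most negative changes. Positions were the same in the deposited gene tables and in GENCODE for all 37 genes. Each is written 5′ to 3′ on its own strand, with the anticodon in capitals. The first 4 are minus-strand genes that lie side by side between *MT-ND2* and *MT-CO1*, for alanine (MT:5587-5655), asparagine (MT:5657-5729), cysteine (MT:5761-5826) and tyrosine (MT:5826-5891), and the last 3 are plus-strand genes that lie between *MT-ND4* and *MT-ND5*, for histidine (MT:12138-12206), serine (MT:12207-12265) and leucine (MT:12266-12336).
MT-TA: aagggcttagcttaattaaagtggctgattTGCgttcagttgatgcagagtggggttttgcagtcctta
MT-TN: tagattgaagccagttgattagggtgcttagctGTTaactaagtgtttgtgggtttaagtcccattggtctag
MT-TC: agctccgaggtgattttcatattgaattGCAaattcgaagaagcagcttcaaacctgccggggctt
MT-TY: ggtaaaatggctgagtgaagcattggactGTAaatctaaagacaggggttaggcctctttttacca
MT-TH: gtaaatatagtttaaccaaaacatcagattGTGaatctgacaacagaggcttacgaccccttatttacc
MT-TS2: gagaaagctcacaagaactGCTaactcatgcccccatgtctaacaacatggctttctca
MT-TL2: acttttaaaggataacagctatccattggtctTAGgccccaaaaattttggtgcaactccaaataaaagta

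Base composition differed by strand. The G content of the 9 minus-strand genes ran from 23.5% to 36.1% with a median of 28.8%, whereas that of the 28 plus-strand genes ran from 6.28% to 19.1% with a median of 14.3%, so that the strands did not overlap. The C content overlapped, at 7.05% to 21.2% on the minus strand and 12.3% to 36.0% on the plus strand. The combined G and C content was alike, with medians of 42.7% on the minus strand and 42.4% on the plus strand.

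The libraries held 60786475 counts in shESE1 and 56853971 counts in shCtrl. *ELF3* was at 10.7 FPKM (fragments relative to gene length and library size) in shESE1 cells and 20.4 FPKM in shCtrl cells, 1.91-fold lower in shESE1. All 5 epithelial markers were present in both libraries. *EPCAM* was at 110 FPKM in shESE1 and 117 FPKM in shCtrl, and *KRT19* was at 606 FPKM in shESE1 and 464 FPKM in shCtrl. *KRT8* was at 271 FPKM in shESE1 and 234 FPKM in shCtrl and *KRT18* at 392 FPKM in shESE1 and 330.2 FPKM in shCtrl. *CDH1* was lower, at 6.95 FPKM in shESE1 and 16.3 FPKM in shCtrl. The blood marker *PTPRC* and the fibroblast markers *COL1A2* and *DCN* were listed at 0 in both, with *PECAM1* under 1 FPKM and *COL1A1* at 2.25 FPKM in shESE1 and 4.53 FPKM in shCtrl.

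Transcripts of the mitochondrial genome were lower in shESE1 cells as a whole, but by very different amounts. The 37 genes together took 2305800 counts in shESE1 and 7042634 counts in shCtrl. This was 3.79% of all counts in shESE1 (95% exact binomial interval 3.79% to 3.80%) and 12.4% in shCtrl (12.38% to 12.40%). Of the 10 genes with the highest FPKM in each library, 8 were mitochondrial in shESE1 and all 10 in shCtrl. In bulk RNA, fewer copies of the genome, less RNA made from each copy and faster loss of that RNA cannot be told apart. The percentages are also shares of poly(A)-selected libraries without replicates. Whether differences in capture of RNA with short tails, library preparation, culture state or the amount of nuclear RNA contributed was not tested.

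Changes are given as log2((shESE1 FPKM + 1)/(shCtrl FPKM + 1)), which understates changes at low levels, and a gene is called lower or higher past 2-fold. Of the 37 genes, 27 were at least 2-fold lower in shESE1 and 0 were higher, whereas among the 12520 genes with at least 1 FPKM in a library 3.26% were lower by that much and 3.14% higher. Past 1.5-fold, 30 of the 37 were lower, beside 11.5% of compared genes lower and 12.2% higher, and past 3-fold 22 were lower, beside 0.911% lower and 0.695% higher. The median change was −1.73 for the 37 genes and 0.02 for all compared genes. All 37 passed the filter, *MT-TQ* only through shCtrl. Each interval given below is a 95% exact one for the shESE1 to shCtrl ratio, made from the counts, put in FPKM terms and free of the pseudocount. They cover counting error only. Of the mitochondrial genes under 1000 counts, 17 of 18 in shESE1 and 15 of 16 in shCtrl had values that came to a whole number of covered bases divided by the read length of 150 bases, within 0.1 base. Counts of this kind are not whole fragments, so the intervals are approximate and may be too narrow. They lay wholly below 0 for 34 genes and included 0 for the other 3, all tRNA genes.

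**Figure D1:**
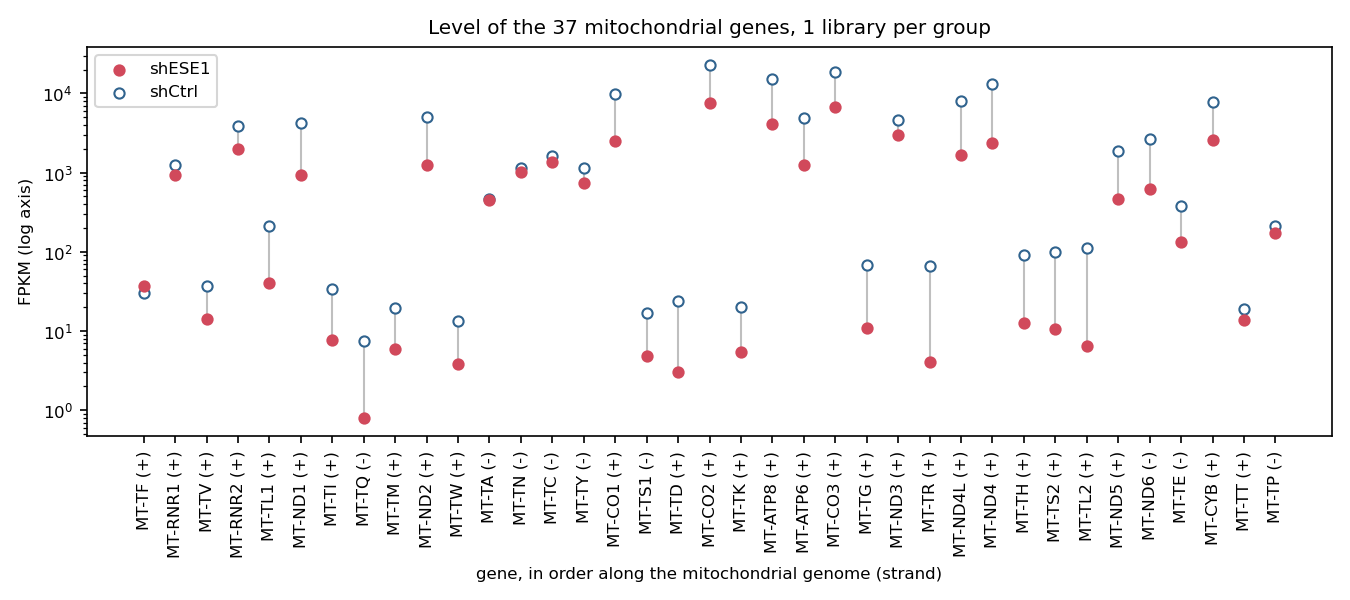
FPKM of the 37 mitochondrial genes (log axis) in genome order in the shESE1 library and the shCtrl library, 1 library each. The protein and rRNA genes stand at 462.5 to 7607 FPKM in shESE1 and 1252 to 23067 FPKM in shCtrl, the plus-strand tRNA genes far below them, and 6 of the 8 minus-strand tRNA genes above 100 FPKM in both.

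The protein genes carried most of the mitochondrial reads, with 86.4% of mitochondrial counts in shESE1 and 92.7% in shCtrl. Levels ran from 462.5 FPKM for *MT-ND5* to 7607 FPKM for *MT-CO2* in shESE1, and from 1854 FPKM to 23067 FPKM for the same genes in shCtrl. The spread from lowest to highest was 16.4-fold in shESE1 and 12.4-fold in shCtrl. In both libraries *MT-CO2*, *MT-CO3* and *MT-ATP8* had the highest levels in that order, and *MT-ND1*, *MT-ND6* and *MT-ND5* had the lowest in that order. Genes of complex I, which takes electrons from NADH, had a median change of −2.08, with 6 of 7 lower. The 3 complex IV genes, core subunits of cytochrome c oxidase, had a median of −1.60, and the 2 ATP synthase genes a median of −1.92, all lower.

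Among the complex I genes on the plus strand, 5 of 6 were lower. *MT-ND4*, a proton-pumping subunit of the membrane arm, had the most negative change of all 13 protein genes. It was at 2398 FPKM in shESE1 and 13121 FPKM in shCtrl (log2 change −2.45), and its share of mitochondrial counts was 10.5% in shESE1 and 17.3% in shCtrl. *MT-ND4L*, which lies directly before it on the same mRNA, was at 1659 FPKM in shESE1 and 8119 FPKM in shCtrl (−2.29). These genes overlap by 7 bases (10760 to 10766), and the ratio of *MT-ND4L* to *MT-ND4* was 0.692 in shESE1 and 0.619 in shCtrl. The membrane subunit *MT-ND1* was at 945 FPKM in shESE1 and 4234 FPKM in shCtrl (−2.16). *MT-ND2* was at 1258 FPKM in shESE1 and 5092 FPKM in shCtrl (−2.02), and *MT-ND5* at 462.5 FPKM in shESE1 and 1854 FPKM in shCtrl (4.01-fold lower).

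*MT-ND3*, another membrane subunit of complex I (MT:10059-10404), was the protein gene that did not pass 2-fold. It was at 3011 FPKM in shESE1 and 4616 FPKM in shCtrl, a log2 change of −0.62 (interval of the ratio −0.63 to −0.60). By level it was 4th of the 13 protein genes in shESE1 and 10th in shCtrl. Its share of mitochondrial counts was 3.31% in shESE1 and 1.53% in shCtrl. The ratio of *MT-ND3* to *MT-ND4L*, the next protein gene downstream, was 1.81 in shESE1 and 0.569 in shCtrl. The tRNA genes on either side of it did not share this pattern: *MT-TG*, for glycine, changed by −2.54 and *MT-TR*, for arginine, by −3.70.

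*MT-ND6*, the protein gene on the minus strand and a membrane subunit of complex I, had a change close to the median of the plus-strand protein genes. It was at 626 FPKM in shESE1 and 2643 FPKM in shCtrl (24101 counts in shESE1 and 93407 in shCtrl), 4.22-fold lower, a log2 change of −2.08. The median of the 12 plus-strand protein genes was −1.98, so that *MT-ND6* differed from it by −0.10. This difference lay well inside the range of those 12 genes, −2.45 to −0.62. Whether strand was used in counting is not given in the sources used here. The *MT-ND6* values may therefore hold reads of RNA antisense to it, which could not be told apart from its own. Whether poly(A) selection recovered *MT-ND6* RNA as it did the plus-strand mRNAs was not tested, which also limits the comparison of strands.

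In complex IV, *MT-CO1*, the catalytic subunit, was at 2475 FPKM in shESE1 and 9811 FPKM in shCtrl (−1.99). *MT-CO2*, which receives electrons from cytochrome c, was at 7607 FPKM in shESE1 and 23067 FPKM in shCtrl (−1.60). *MT-CO3* was at 6755 FPKM in shESE1 and 18431 FPKM in shCtrl (−1.45). The genes of this complex were thus lower by unequal amounts, and *MT-CO1* was itself the median gene of the protein class. *MT-CYB*, the cytochrome b of complex III, was at 2554 FPKM in shESE1 and 7875 FPKM in shCtrl (−1.62).

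The ATP synthase genes *MT-ATP8* and *MT-ATP6*, which encode subunits of its membrane part, are read from one mRNA and overlap by 46 bases. The shared stretch (MT:8527-8572) shows the arrangement, with the start codon of *MT-ATP6* and the stop codon of *MT-ATP8* in capitals.
MT-ATP8 and MT-ATP6 overlap: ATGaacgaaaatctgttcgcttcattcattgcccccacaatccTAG

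*MT-ATP8* was at 4163 FPKM in shESE1 and 15250 FPKM in shCtrl (−1.87), and *MT-ATP6* at 1259 FPKM in shESE1 and 4937 FPKM in shCtrl (−1.97). The ratio of *MT-ATP8* to *MT-ATP6* was 3.31 in shESE1 and 3.09 in shCtrl. How reads in the overlap were divided is not given in the sources used here, so the split between these genes is uncertain. Nuclear copies of *MT-ATP6* add to this, with counts equal to 64.6% of its own in shESE1 and 66.6% in shCtrl. For *MT-ATP8* these values were 0.0111% in shESE1 and 0.00141% in shCtrl. The changes of both genes lay close together.

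The unequal changes altered the make-up of the mitochondrial RNA. Complex I genes took 26.2% of mitochondrial counts in shESE1 and 34.6% in shCtrl, and complex IV genes 45.5% in shESE1 and 43.3% in shCtrl. The share was larger in shESE1 for 4 of the 13 protein genes (*MT-CO2*, *MT-CO3*, *MT-ND3* and *MT-CYB*) and smaller for 9. These shares do not depend on how the libraries were scaled.

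**Figure D2:**
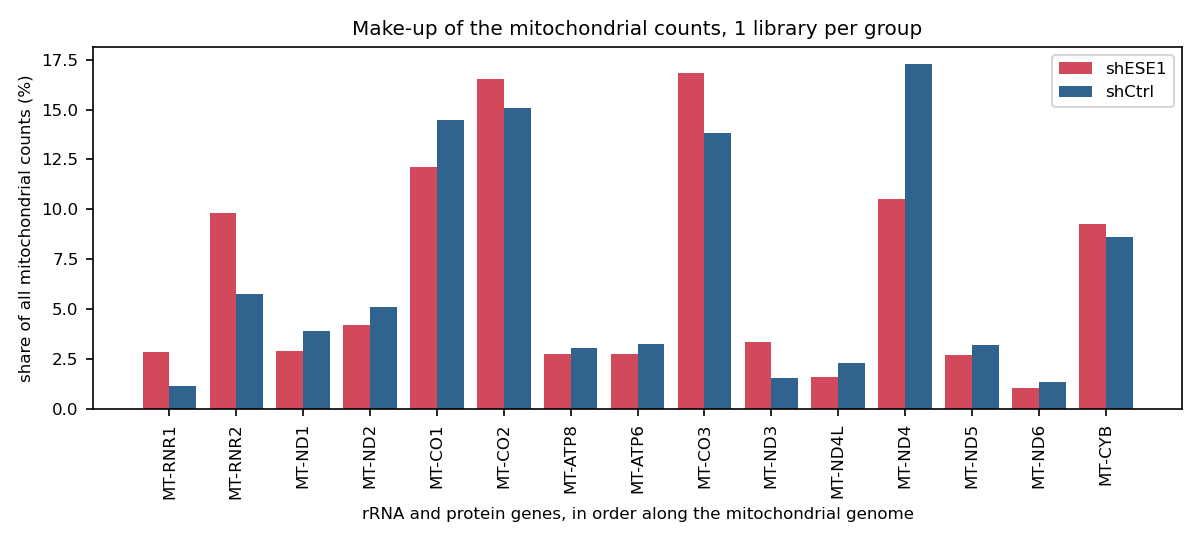
Share of all mitochondrial counts (%) taken by each rRNA and protein gene, in genome order, in the shESE1 library and the shCtrl library. *MT-ND4* took 10.5% in shESE1 and 17.3% in shCtrl, whereas *MT-CO3* took 16.9% in shESE1 and 13.8% in shCtrl, and both rRNA genes had larger shares in shESE1.

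The rRNA genes, which encode the RNAs of the small (*MT-RNR1*) and large (*MT-RNR2*) mitochondrial ribosomal subunits, had smaller decreases than the protein genes on the plus strand, other than *MT-ND3*, whose change lay between those of the 2 rRNA genes. *MT-RNR1* (MT:648-1601) was at 933 FPKM in shESE1 and 1252 FPKM in shCtrl, with 65335 counts in shESE1 and 80422 in shCtrl. Its log2 change was −0.42 (interval −0.44 to −0.41). *MT-RNR2* (MT:1671-3229) was at 1983 FPKM in shESE1 and 3842 FPKM in shCtrl, with 226828 counts in shESE1 and 403144 in shCtrl. Its change was −0.95 (interval −0.96 to −0.95). Neither passed 2-fold, although *MT-RNR2* did after median ratio scaling (−1.01) and with totals that omit the mitochondrial genes (−1.09). The ratio of *MT-RNR2* to *MT-RNR1* was 2.12 in shESE1 and 3.07 in shCtrl. The rRNA genes together took 12.7% of mitochondrial counts in shESE1 and 6.87% in shCtrl, which counts only rRNA recovered after poly(A) selection. The mean of the 2 genes lay 1.30 above the median of the protein genes.

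**Figure D3:**
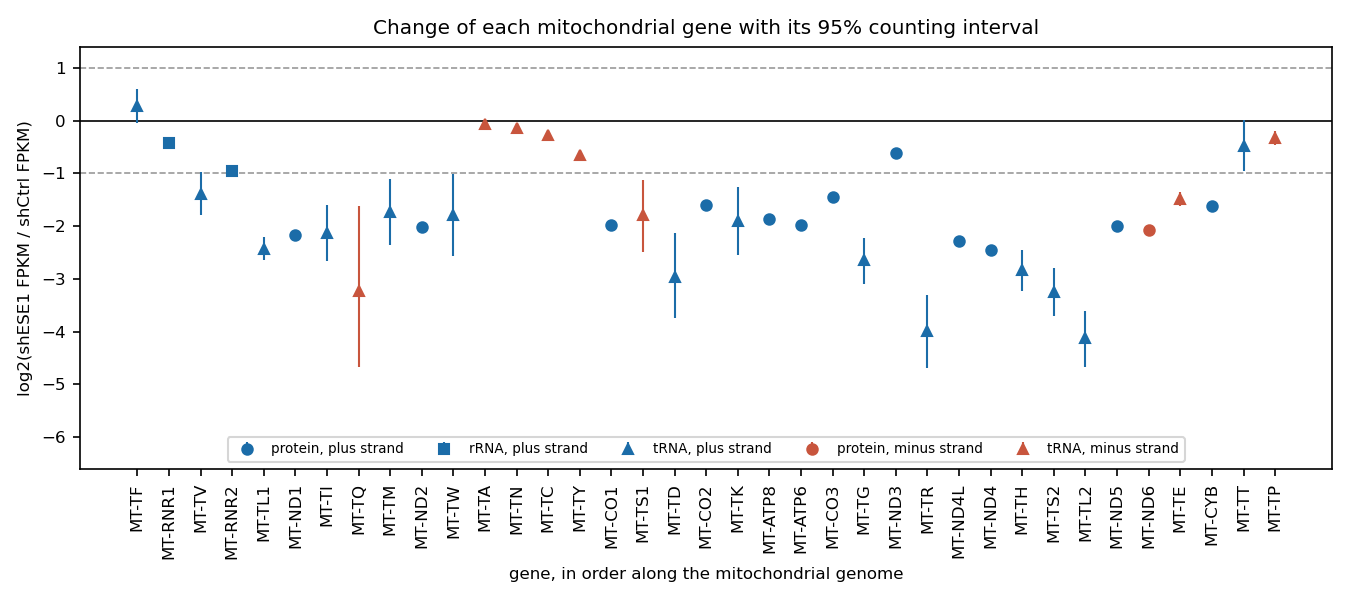
Change of each of the 37 genes in genome order as log2(shESE1 FPKM / shCtrl FPKM) without a pseudocount; shapes mark the class, colours the strand, bars the 95% counting interval, and dashed lines 2-fold. The protein genes other than *MT-ND3* lie below the lower dashed line, both rRNA genes lie above it, and the tRNA genes spread on both sides.

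tRNA genes took 0.889% of mitochondrial counts in shESE1 and 0.384% in shCtrl, and 15 of 22 were at least 2-fold lower in shESE1. A tRNA gene is shorter than a read, so its count holds the parts of reads that lie over it, and mature tRNAs carry no poly(A) tail. Whether the reads came from precursors, and whether strand was used in counting, is not given in the sources used here. Reads of an antisense RNA and of the gene itself could therefore not be told apart.

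The 2 strands differed both in level and in change. On the minus strand, 3 of 8 tRNA genes were lower, with a median change of −0.49, and their summed counts were 19595 in shESE1 and 23078 in shCtrl, 1.28-fold lower. On the plus strand, 12 of 14 were lower, with a median of −2.20, and the sums were 905 in shESE1 and 3963 in shCtrl, 4.77-fold lower. The median of the minus strand lay 1.71 above that of the plus strand, a contrast that was chosen after the values were seen. Minus-strand genes took 95.6% of all tRNA counts in shESE1 and 85.3% in shCtrl. The difference narrowed to 0.76 as CPM (counts scaled to library size alone) with a pseudocount of 1, and to 1.24 with a pseudocount of 5.

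The highest tRNA levels were those of the minus-strand cluster between *MT-ND2* and *MT-CO1*, none of whose members reached 2-fold. *MT-TA* was at 451 FPKM in shESE1 and 472 FPKM in shCtrl (−0.07, interval −0.15 to 0.02). *MT-TN* was at 1031 FPKM in shESE1 and 1135 FPKM in shCtrl (−0.14, interval −0.19 to −0.08). *MT-TC* was at 1369 FPKM in shESE1 and 1642 FPKM in shCtrl (−0.26). The last member, *MT-TY*, was at 742 FPKM in shESE1 and 1161 FPKM in shCtrl (−0.64). The changes thus became more negative along the cluster with rising position, from *MT-TA* to *MT-TY*. The small negative values of the first 3 turned positive or to zero as TPM, at 0.20, 0.13 and 0.00, where the median of all genes was 0.27. These 4 genes held 87.9% of tRNA counts in shESE1 and 74.8% in shCtrl.

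Of the other minus-strand tRNA genes, *MT-TP*, for proline, was at 171 FPKM in shESE1 and 215 FPKM in shCtrl (−0.33). *MT-TE*, for glutamic acid, lies beside *MT-ND6* and was at 135 FPKM in shESE1 and 379 FPKM in shCtrl (−1.48). *MT-TS1* and *MT-TQ* were at the low levels of the plus-strand genes. *MT-TS1*, for serine, was at 4.89 FPKM in shESE1 and 16.9 FPKM in shCtrl (−1.61). *MT-TQ*, for glutamine, was at 0.790 FPKM in shESE1 and 7.41 FPKM in shCtrl, with 5 counts in shESE1 and 36 in shCtrl (−2.23 with the pseudocount, interval without it −4.68 to −1.62). It shares 3 bases with *MT-TI* on the opposite strand. Minus-strand position alone therefore did not go with a high level or a small change.

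On the plus strand, the 4 tRNA genes between *MT-ND3* and *MT-ND5* had the most negative changes on the scale with the pseudocount, and their folds are given here without it. The gene with the most negative change of all 37 was *MT-TL2*, for leucine, at 6.48 FPKM in shESE1 and 113 FPKM in shCtrl, 17.5-fold lower (34 counts in shESE1 and 542 in shCtrl). *MT-TR*, for arginine, was at 4.10 FPKM in shESE1 and 65.5 FPKM in shCtrl, 16.0-fold lower. *MT-TS2* was at 10.5 FPKM in shESE1 and 99.8 FPKM in shCtrl, 9.50-fold lower. *MT-TH* was at 12.7 FPKM in shESE1 and 90.7 FPKM in shCtrl, 7.14-fold lower. The 3 adjoining genes *MT-TH*, *MT-TS2* and *MT-TL2* summed to 145 counts in shESE1 and 1361 counts in shCtrl, 10.2-fold lower, whereas the *MT-ND4* and *MT-ND5* genes on either side were 5.47-fold and 4.01-fold lower.

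*MT-TL1*, for leucine, lies between *MT-RNR2* and *MT-ND1* and had the highest plus-strand tRNA level, 40.0 FPKM in shESE1 and 215 FPKM in shCtrl (−2.40). *MT-TD*, for aspartic acid, was at 3.05 FPKM in shESE1 and 23.7 FPKM in shCtrl (−2.61, and 7.78-fold lower without the pseudocount, more than *MT-TH*). *MT-TG* was at 10.8 FPKM in shESE1 and 67.5 FPKM in shCtrl (−2.54). The rest of those called lower, *MT-TV*, *MT-TI*, *MT-TM*, *MT-TW* and *MT-TK*, for valine, isoleucine, methionine, tryptophan and lysine, stood at 3.88 to 14.3 FPKM in shESE1 and 13.5 to 37.4 FPKM in shCtrl, with changes between −1.99 and −1.33.

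The plus-strand tRNA genes at the 2 ends of the row of genes did not pass 2-fold. *MT-TF*, for phenylalanine, precedes *MT-RNR1* and is nearest to the promoters. It was at 36.6 FPKM in shESE1 and 30.1 FPKM in shCtrl, with 191 counts in shESE1 and 145 in shCtrl, and was the gene among the 37 with a positive change (0.27, interval −0.05 to 0.59). *MT-TT*, for threonine, follows *MT-CYB* and was at 13.6 FPKM in shESE1 and 19.0 FPKM in shCtrl (−0.45, interval −0.95 to 0.01). Neither interval excluded equal levels.

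**Figure D4:**
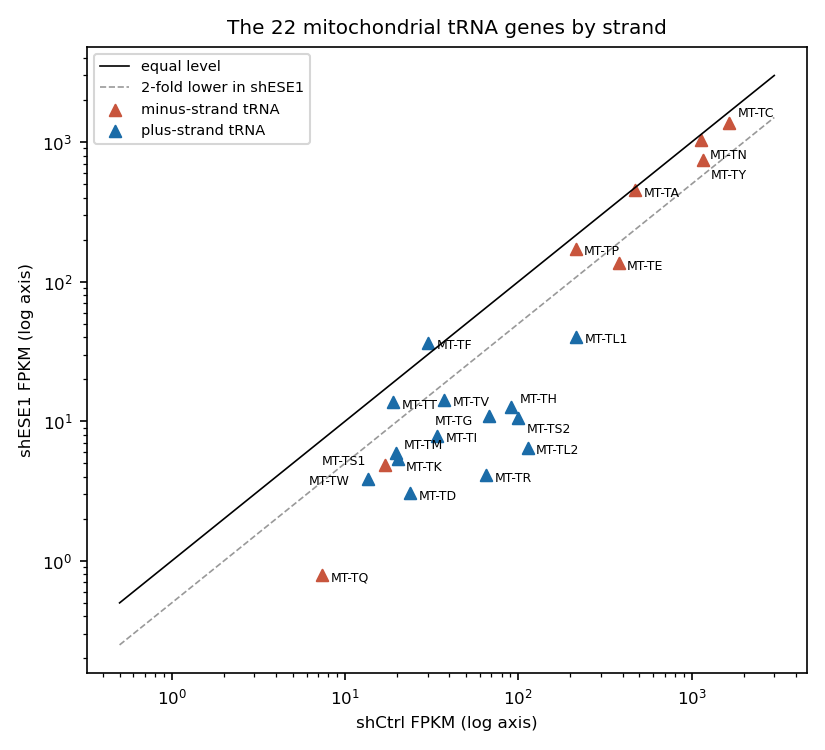
FPKM of the 22 tRNA genes in shESE1 (vertical, log axis) against shCtrl (horizontal, log axis), coloured by strand. The 4 clustered genes *MT-TA*, *MT-TN*, *MT-TC* and *MT-TY* lie near the line of equal level at 451 to 1369 FPKM in shESE1, whereas 12 of the 14 plus-strand genes lie below the dashed 2-fold line.

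Each tRNA gene was also set against the rRNA or protein gene beside it, or the one with the lower level where there were 2. These neighbours were taken by position whatever their strand. Those of the minus-strand tRNA genes lie on the plus strand, other than *MT-ND6* beside *MT-TE*, so the values of the 2 strands are unlike measures. Minus-strand tRNA genes had a median of 28.7% of that level in shESE1 and 11.8% in shCtrl. *MT-TC* was the highest, at 109% of the level of *MT-ND2* in shESE1 and 32.3% in shCtrl. Plus-strand tRNA genes had a median of 0.726% in shESE1 and 1.44% in shCtrl, with ranges of 0.123% to 4.23% in shESE1 and 0.132% to 6.11% in shCtrl. Of the 8 minus-strand genes, 1 had a more negative change than each rRNA or protein gene beside it and 6 a less negative one. For the 14 plus-strand genes these counts were 8 and 5.

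Nuclear copies of mitochondrial genes can share reads with them. Of 408 listed copies, 31 had counts, which summed to 81584 in shESE1 and 286927 in shCtrl. The copies with the most counts lie side by side on chromosome 1. *MTATP6P1*, a copy of *MT-ATP6*, was at 813 FPKM in shESE1 and 3286 FPKM in shCtrl, and *MTCO1P12*, a copy of *MT-CO1*, at 222 FPKM in shESE1 and 807 FPKM in shCtrl. Those of *MT-ATP6* reached 64.6% of its own counts in shESE1 and 66.6% in shCtrl, those of *MT-ND2* 13.1% in shESE1 and 12.1% in shCtrl, and those of *MT-CO1* 8.99% in shESE1 and 8.23% in shCtrl. The level of *MT-ATP6* is therefore uncertain. *MTATP6P1* changed by −2.01, close to *MT-ATP6* at −1.97, so adding the counts of copies could move the log2 change little. That of *MT-ATP6* shifted by −0.017, and none of the other protein and rRNA genes moved further. The small shifts do not show which of them the reads came from. Copies of tRNA genes were not examined.

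The nuclear genes that act on mitochondrial RNA and DNA showed no like decrease. Of 56 listed genes 55 were compared, of which 0 were at least 2-fold lower and 2 were higher, with a median change of 0.20. Among all compared genes 3.26% were lower and 3.14% higher, so the count of higher genes was near the background. *TWNK*, the replicative helicase, was at 10.9 FPKM in shESE1 and 3.18 FPKM in shCtrl (interval of the ratio 1.66 to 1.87 on the log2 scale), and *ATAD3A*, a membrane ATPase linked to the nucleoids, at 19.6 FPKM in shESE1 and 9.01 FPKM in shCtrl (log2 change 1.04). The number changed was sensitive to the calculation, from 0 with a pseudocount of 5 to 6 as TPM.

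In the transcription list, changes ran from −0.84 for *MTERF1*, a protein that binds downstream of the rRNA genes, to 0.36 for *POLRMT*. *MTERF1* was at 0.975 FPKM in shESE1 and 2.54 FPKM in shCtrl, a low level at which the pseudocount decides the call, and without it the interval of its ratio was −1.55 to −1.19. All 4 processing factors had positive changes under 2-fold, from 0.13 for *TRMT10C* to 0.86 for *HSD17B10*, both subunits of the RNase P that cuts tRNA 5′ ends. *HSD17B10* was at 69.5 FPKM in shESE1 and 37.9 FPKM in shCtrl. Among the 14 genes for polyadenylation, stability and decay, the 2 extremes were the partners of the complex that protects mitochondrial mRNAs. *LRPPRC* was at 20.3 FPKM in shESE1 and 31.4 FPKM in shCtrl (−0.60), whereas *SLIRP* was at 29.3 FPKM in shESE1 and 15.0 FPKM in shCtrl (0.92).

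The rRNA modification and ribosome assembly genes ran from −0.14 for *TFB1M* to 0.78 for the methyltransferase *MRM2*, and the tRNA maturation genes from −0.31 for *TRIT1* to 0.94 for the pseudouridine synthase *PUS1*. As for *MTERF1*, the pseudocount decides the call of *PUS1*, whose ratio had an interval of 1.05 to 1.25 without it. The lowest DNA maintenance gene was the topoisomerase *TOP1MT*, at −0.57.

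The 13 protein genes of the mitochondrial genome had a median change of −1.99. It was 0.48 for the 80 compared nuclear genes picked by name for the respiratory chain and ATP synthase. Being picked by name, not all of them need encode a subunit. Of the 80, 2 were lower (*NDUFA13*, −1.22, and *COX7A2L*, −1.16) and 2 higher (*NDUFB2*, 1.20, and *ATP5MD*, 1.04). Among all compared genes 3.26% were lower and 3.14% higher, so these counts past 2-fold were near the background. The changes as a set were not, since 7 of the 80 lay below 0 and the median of all compared genes was 0.02. The 78 mitochondrial ribosomal protein genes had a median of 0.45, and 10 of them lay below 0. Past 2-fold, *MRPL49* was lower (−1.39) and *MRPL17* (1.09) and *MRPL55* (1.02) were higher, likewise near those shares.

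**Figure D5:**
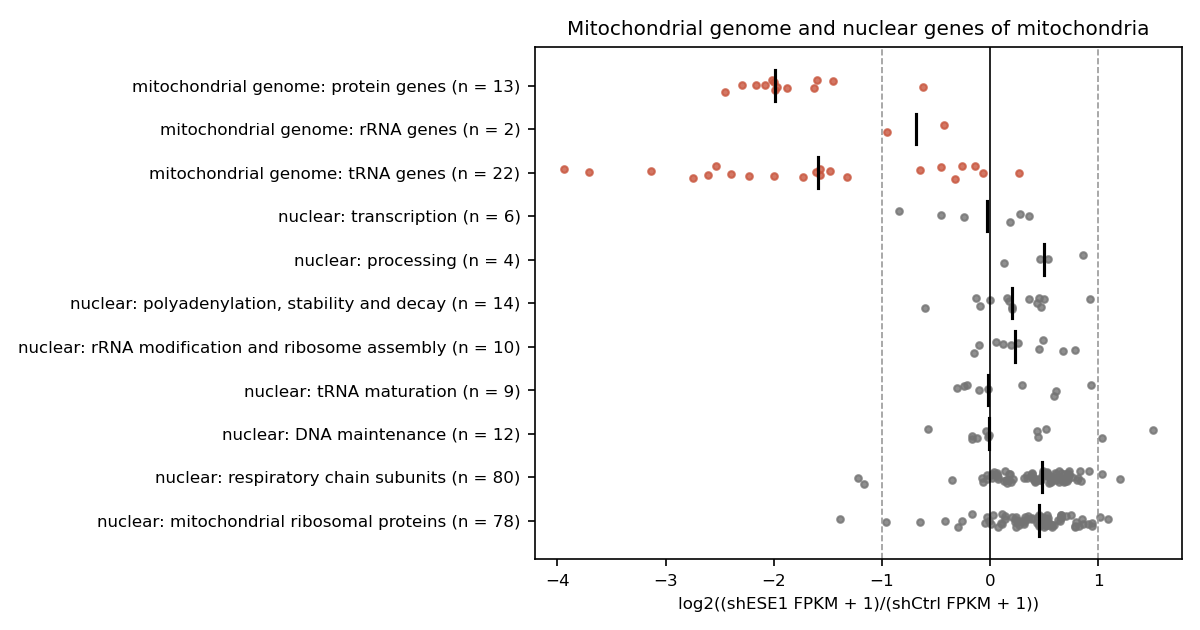
Log2((shESE1 FPKM + 1)/(shCtrl FPKM + 1)) of single genes (points) in the mitochondrial classes and in the nuclear lists, with the median of each as a line and 2-fold as dashed lines. The mitochondrial protein genes have a median of −1.99, whereas the nuclear respiratory chain subunits and the mitochondrial ribosomal proteins have medians of 0.48 and 0.45. The subunit list was made by gene name and includes ATP synthase genes.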

How the data were processed

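RNA of L3.6 cells was sequenced as 1 shESE1 and 1 shCtrl library. The authors deposited FPKM per gene, with genes lacking reads held at 0.0001, which was set to 0. The deposited table also held an estimated count per gene, not normalized across libraries. For all 37 mitochondrial genes the count equalled FPKM times length over a constant, rounded up. Per the submitters' notes, processing involved HISAT2, StringTie and fastp, and 2 builds, mm10 and GRCh38. Their versions and roles, and whether counting used strand, are not given in these sources. Gene positions were human, on GRCh38.

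Genes with at least 1 FPKM in a library (12520) were compared by log2 FPKM with a pseudocount of 1. Each ratio was given a 95% Clopper-Pearson interval, which covers counting error only. With 1 library per group no test was run. The members, gene lists and measures were chosen with earlier results of these data known. Named were all 37 mitochondrial genes, *ELF3*, the marker genes, the members of the nuclear lists changed at least 2-fold and the extremes of the factor lists, and up to 4 nuclear copies with the most counts. Alternatives were CPM, TPM, TMM, median ratio scaling, totals without mitochondrial genes, other pseudocounts, filters and folds. The calculation was also run on counts simulated from the shCtrl library with known changes, which checks the arithmetic and none of the results above. Sequences came from GENCODE release 29 transcripts. Python 3.11.15 with numpy 2.4.6, pandas 2.3.3, scipy 1.17.1 and matplotlib 3.10.9, and edgeR 4.0.16 in R 4.3.3 for TMM factors, were used.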

Additional observations from a re-analysis of the deposited data

How the results depend on the processing

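Over 10 settings, 33 mitochondrial genes were lower in shESE1 in all and 21 at least 2-fold lower in all. The settings that altered only the filter repeat the main values of each gene, and the others recalculate the same libraries, so the settings are not independent checks. *MT-TF* was higher in all, *MT-TA*, *MT-TN* and *MT-TC* changed sign as TPM, and *MT-TA* also did after TMM (0.007). The count of genes at least 2-fold lower ran from 21 (CPM) to 28 at 2-fold. The protein median of −1.99 was −1.96 as CPM, −1.91 after TMM, −1.72 as TPM, −2.04 after median ratio scaling and −2.12 with totals that omit the mitochondrial genes. In the same order the rRNA mean of −0.69 was −0.66, −0.62, −0.42, −0.75 and −0.82. These shifts follow from the scaling, since the median of all genes moved by similar steps to 0.05, 0.10, 0.27, −0.03 and −0.09. As CPM the tRNA median of −1.59 was −0.83 and the strand difference of 1.71 was 0.76. This difference was 1.24 with a pseudocount of 5, and its alternatives were chosen after seeing the data. In shESE1 most plus-strand tRNA genes lie near or under 1 CPM, where the pseudocount holds changes down. The 2 nuclear factors past 2-fold became 4 as CPM, 5 after TMM, 6 as TPM, 4 after median ratio scaling, 1 with mitochondrial genes left out, 4 and 0 with pseudocounts of 0.1 and 5, and 11 and 0 at 1.5-fold and 3-fold. The mitochondrial share was 14.8% in shESE1 and 37.9% in shCtrl as summed FPKM, and 3.31% in shESE1 and 11.5% in shCtrl without the rRNA genes. Since all 37 mitochondrial genes passed the main filter, the looser filters could not alter their values. The count of nuclear factors past 2-fold stayed at 2 under them. No paired analysis was possible because each group holds 1 library, which also leaves differences between cultures unmeasured.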
